A study of Mus musculus with 43 samples.

Results

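Regulatory T cells are CD4+ T cells that restrain other immune cells, and the comparison described here is that of unstimulated regulatory T cells (Treg cells) with unstimulated CD4+ T cells (CD4 T cells) of mouse spleen. It rests on 6 of the 43 arrays of the series, which were chosen by their titles. The Treg group was the 3 arrays labelled as CD4 TReg cells and stained as CD4+ CD25+ cells, and its counterpart was the 3 arrays labelled as CD4 TConv cells, for which the labels give CD4+ as the only marker. Both groups came from 6-week-old C57BL/6 males with no allele or agent named. The series measured RNA of 9 sorted immune cell types on whole-transcript Affymetrix mouse arrays (Gene 1.0 ST), at baseline and after interferon alpha. No stain is labelled that removed CD25+ cells from the CD4 T cells, and it is not stated whether each array of a group is a different animal, so a p-value here reflects no more than array-to-array spread.

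The transcription factor Foxp3 sets up and maintains the regulatory programme, and mice without it develop fatal autoimmunity. Treg cells hold large amounts of CD25, the alpha chain of the interleukin-2 (IL-2) receptor encoded by Il2ra, make little IL-2 of their own and depend on IL-2 from other T cells, which reaches their genes through the factor STAT5. They act on other cells through the inhibitory receptor CTLA-4, through transforming growth factor beta (TGF-beta) and IL-10, and through adenosine made from extracellular ATP.

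All values are deposited intensities on the log2 scale, and a difference is the Treg mean minus the CD4 T mean. A gene was called when the limma p, adjusted by Benjamini-Hochberg over all 19752 genes, was below 0.05 and the difference was at least 1, a 2-fold change. Levels of different genes are not compared with each other, because each probe set has its own brightness. The arrays carry no zero level, so no gene is read as absent, and precision is limited by how few arrays each group has. In a sorted population, fewer cells that contain a transcript and less of it per cell cannot be told apart.

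The 6 arrays carried the markers of their labels. Foxp3 read 12.07, 12.07 and 11.81 on the Treg arrays, against 9.36, 9.27 and 9.53 on the CD4 T arrays, and its Treg mean was the highest of the 9 cell types. Cd3e, a chain of the T cell receptor complex, read 12.72, 12.73 and 12.87 on the Treg arrays, against 12.67, 12.61 and 12.36 on the CD4 T arrays. Cd4 read 11.58, 11.66 and 11.58 on the Treg arrays, against 11.92, 11.93 and 11.39 on the CD4 T arrays, so the groups overlapped for Cd4 and lay close for Cd3e. Cd8a averaged 6.25 ± 0.14 in Treg cells and 6.21 ± 0.35 in CD4 T cells, against 11.83 ± 0.07 in CD8 T cells (SD, n = 3 each). Array medians ran from 108 to 120 on the linear scale. CD4 T array 3 stood apart, with correlations of 0.967 and 0.969 to the other CD4 T arrays, which correlated at 0.995 with each other, and the Treg arrays correlated at 0.990 to 0.997. Arrays 1 and 2 of both groups share a preparation wording and array 3 of both groups carries another, so the wording was balanced between the groups.

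Between these groups, 189 genes were higher in Treg cells (0.957% of those tested) and 52 were lower (0.263%), which makes 241 called genes in all (1.22%). Higher genes were thus 78.4% of the calls, while the median difference over all genes was -0.041. At least 4-fold differences numbered 27 upward and 11 downward. For each of the 241 genes the 3 Treg arrays lay wholly above or wholly below the 3 CD4 T arrays, a separation that 10.7% of all genes showed upward and 8.84% downward. Since the 241 were called on these same arrays, their separation only describes them. All 241 were also called with the preparation wording as a block. As the wording was balanced, the block could alter only the estimated spread and not the differences. The percentages called, 0.957% upward and 0.263% downward, are the background against which each count of list members below is given. Without CD4 T array 3 the counts were 158 higher and 73 lower, of which 146 and 50 were the same genes, and higher genes were 68.4% of the calls.

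**Figure D1:**
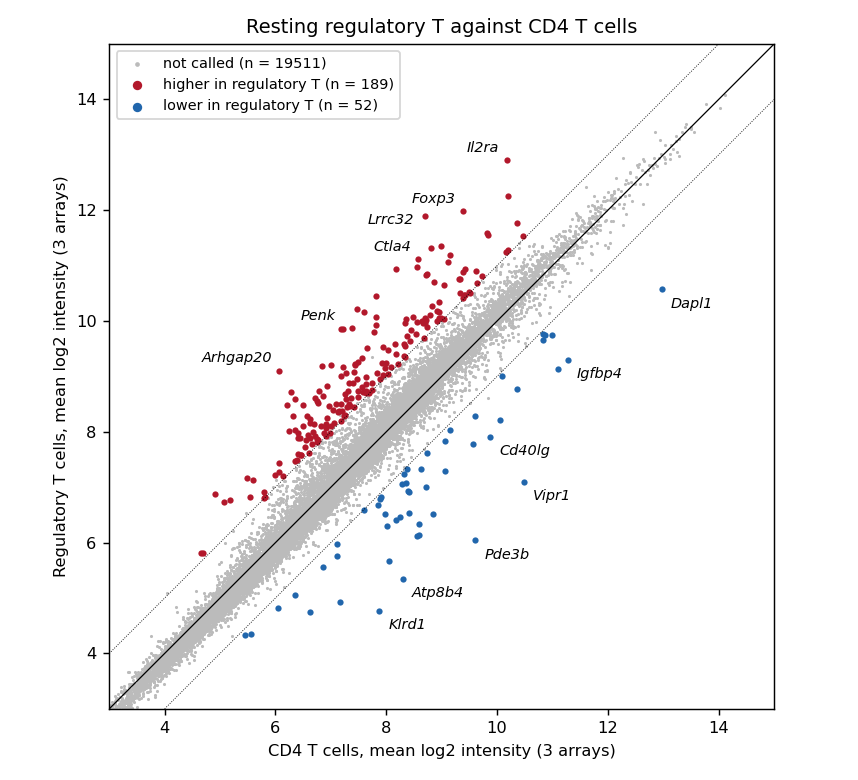
Mean log2 intensity of every gene in Treg cells (vertical axis) against CD4 T cells (horizontal axis), 3 arrays each. Red points are the 189 genes called higher in Treg cells, blue points the 52 called lower and grey points the rest, and the dotted lines mark a 2-fold difference.

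The genes that define Treg cells rose together. Of a list of 25 Treg signature genes, 24 were called higher and 0 lower, with a median difference of 2.06, against -0.041 over all genes, and the 24 were called without CD4 T array 3 as well. The remaining member was the costimulatory receptor Icos, at 10.94, 10.88 and 11.59 on the Treg arrays, against 10.33, 10.26 and 10.34 on the CD4 T arrays, a difference of 0.83 (SE 0.198, adjusted p = 0.0102). Its arrays did not overlap either, but its difference was under 2-fold. The 24 include Il2ra, the gene of the sort marker CD25, and the list was chosen with earlier results of these data known.

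Foxp3 itself, on the X chromosome, rose 6.04-fold, a difference of 2.59 (SE 0.142, adjusted p = 7.32e-15). Flicr, a long noncoding RNA that lies beside Foxp3 and is known in mouse to restrain it, read 8.75, 8.88 and 8.54 on the Treg arrays, against 6.17, 6.55 and 6.11 on the CD4 T arrays. No array of one group reached the other, and the difference was 2.45 (SE 0.194, adjusted p = 5.62e-11). Il2ra encodes the marker by which the Treg cells were sorted, so its level describes the sort. It read 12.89, 12.91 and 12.90 on the Treg arrays, against 10.11, 10.20 and 10.20 on the CD4 T arrays, with the Treg arrays almost equal to each other. Ctla4, the inhibitory receptor that competes with CD28 for its ligands, read 11.09, 11.20 and 11.06 on the Treg arrays, against 8.58, 8.60 and 8.56 on the CD4 T arrays. The difference was 2.54 (SE 0.167, adjusted p = 6.63e-13).

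Among transcription factors, 8 of 33 measured T cell factors were higher and 1 was lower, against 0.957% and 0.263% of all genes, with a list median of 0.30. The called factors included both Ikaros family partners of Foxp3. Ikzf2, which encodes Helios, read 11.11, 10.81 and 11.005 on the Treg arrays, against 8.69, 8.60 and 8.36 on the CD4 T arrays, a difference of 2.42 (SE 0.204, adjusted p = 1.91e-10). Ikzf4, which encodes Eos, read 9.79, 9.82 and 9.82 on the Treg arrays, against 7.77, 7.54 and 8.01 on the CD4 T arrays, and differed by 2.03 (SE 0.139, adjusted p = 1.71e-12). The other Ikaros genes were not called, with Ikzf1 at -0.49, Ikzf3 at 0.93 and Ikzf5 at 0.18.

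Hopx, a small homeodomain protein gene, differed by 1.78. Irf4 and Prdm1 (Blimp-1), which act in effector Treg cells, differed by 1.24 and 1.12, and the aryl hydrocarbon receptor gene Ahr by 1.16. Rel, the NF-kappaB subunit needed for Treg development, differed by 1.07 and was not called without CD4 T array 3. Id2, an inhibitor of E-protein factors, was the factor called lower, at 9.62, 9.60 and 9.996 on the Treg arrays, against 11.15, 10.96 and 10.89 on the CD4 T arrays, a difference of -1.26 (SE 0.174, adjusted p = 5.47e-06). Gata3 (0.99) and Maf (0.96) came close to the 2-fold limit, while Tbx21 (-0.66), Lef1 (-0.66) and Satb1 (-0.59) had negative differences that were under 2-fold. Foxo1, Runx1 and Ets1 differed by 0.15, 0.02 and 0.09 and were not called.

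Of 15 measured genes of IL-2 and the common gamma chain, 4 were higher and 0 lower, with a median of 0.40. They were the receptor chains Il2ra and Il2rb and the feedback inhibitors Socs2 and Cish, which STAT5 is known to induce. Of these, Il2ra describes the sort. Il2rb read 12.38, 12.37 and 12.01 on the Treg arrays, against 10.36, 10.34 and 9.89 on the CD4 T arrays, a difference of 2.06 (SE 0.178, adjusted p = 3.59e-10). Socs2 read 10.16, 10.28 and 10.22 on the Treg arrays, against 7.43, 7.55 and 7.41 on the CD4 T arrays, and differed by 2.75 (SE 0.311, adjusted p = 1.29e-07). For both genes all Treg arrays lay far above all CD4 T arrays.

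Cish read 10.04, 10.19 and 9.55 on the Treg arrays, against 7.78, 7.96 and 7.70 on the CD4 T arrays, a difference of 2.11 (SE 0.198, adjusted p = 2.18e-09). The signal transducers Stat5a, Stat5b and Jak1 differed by 0.55, 0.40 and 0.09 and were not called. Il2 itself read 6.71, 6.30 and 6.65 on the Treg arrays, against 6.15, 5.93 and 6.79 on the CD4 T arrays, so the groups overlapped. Il7r, the receptor chain for IL-7 that is low on human and mouse Treg cells, read 11.44, 11.28 and 11.50 on the Treg arrays, against 12.34, 12.05 and 11.75 on the CD4 T arrays. It was lower on every Treg array but not called, at -0.64 (SE 0.244, adjusted p = 0.26).

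Because STAT5 binds the palindrome TTCNNNGAA, where N is any base, this motif was looked for near the starts of the 25 called genes that belong to the Treg signature or the IL-2 list. RefSeq promoter windows (build GRCm38.p6, 250 bases before to 50 bases after an annotated start) were available for 17 of the 25, in 20 windows, and 4 genes held a match. The sequences of these 4 windows are shown because they carry every match found, and capitals mark the 9 matched bases. Being a palindrome, the motif reads the same on both strands. The windows lie on the plus strand at chr9:107296409-107296708 for Cish, chrX:7580233-7580532 for Foxp3, chr4:156026072-156026371 for Tnfrsf18 and chr4:150927749-150928048 for Tnfrsf9.
Cish: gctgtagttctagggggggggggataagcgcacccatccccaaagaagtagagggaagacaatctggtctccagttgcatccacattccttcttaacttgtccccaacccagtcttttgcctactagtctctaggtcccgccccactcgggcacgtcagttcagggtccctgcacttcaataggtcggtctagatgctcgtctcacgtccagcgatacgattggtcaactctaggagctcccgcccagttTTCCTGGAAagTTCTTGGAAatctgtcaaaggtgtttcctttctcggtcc
Foxp3: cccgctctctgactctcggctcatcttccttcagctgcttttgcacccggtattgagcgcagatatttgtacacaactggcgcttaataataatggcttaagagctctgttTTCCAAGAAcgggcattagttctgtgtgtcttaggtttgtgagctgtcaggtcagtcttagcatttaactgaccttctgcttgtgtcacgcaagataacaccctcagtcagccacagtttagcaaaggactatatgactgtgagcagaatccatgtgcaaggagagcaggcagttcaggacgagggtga
Tnfrsf18: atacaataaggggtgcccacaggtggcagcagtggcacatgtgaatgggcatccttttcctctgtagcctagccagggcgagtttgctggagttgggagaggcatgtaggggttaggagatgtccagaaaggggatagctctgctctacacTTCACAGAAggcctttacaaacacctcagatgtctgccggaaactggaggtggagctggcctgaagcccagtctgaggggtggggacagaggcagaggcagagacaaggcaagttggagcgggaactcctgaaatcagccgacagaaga
Tnfrsf9: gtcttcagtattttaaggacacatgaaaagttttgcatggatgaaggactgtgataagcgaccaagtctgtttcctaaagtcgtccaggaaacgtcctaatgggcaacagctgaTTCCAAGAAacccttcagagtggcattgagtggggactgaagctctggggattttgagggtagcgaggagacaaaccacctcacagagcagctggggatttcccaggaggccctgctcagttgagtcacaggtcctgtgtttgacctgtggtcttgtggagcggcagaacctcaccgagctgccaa

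With the annotated start as +1, Cish held 2 matches, which began at +1 and +12. The match in Foxp3 began at -139, that in Tnfrsf18 at -99 and that in Tnfrsf9 at -136. Foxp3 and Tnfrsf9 each have a second annotated window, and neither of those held a match. Over all called genes with a window, the motif was in 14% of 136 higher genes and 8.11% of 37 lower genes, against 8.95% of 15483 measured genes. An NF-kappaB motif (GGG and TCC with 4 bases between them, either strand) was in 36.8% of the higher and 32.4% of the lower genes, against 24.3% of all. An AP-1 motif (TGANTCA) was in 14.7% and 5.41%, against 8.04%, and a forkhead motif (TGTTTAC, either strand) in 5.88% and 2.7%, against 3.5%. The cyclic AMP response motif (TGACGTCA) was in 0.735% and 0%, against 2.72%. These shares are 1 of the 136 and 0 of the 37 genes, too few to read a direction. The AP-1 and forkhead shares of the lower genes likewise rest on 2 and 1 of the 37. The median GC content was 59.7% for higher and 62% for lower genes, against 57.7% for all. Windows per gene averaged 1.2 and 1.43, against 1.23. The part of GC content and window number in the motif shares was not tested. The motif shares are descriptions of letters in a window and show neither binding nor a cause.

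Molecules through which Treg cells act on other cells were next. Of 21 measured suppressor genes, 12 were higher and 1 was lower (median 1.12), and 11 and 1 without CD4 T array 3. The list shares members such as Ctla4 with the signature list. Lrrc32, which encodes GARP, the protein that holds latent TGF-beta on the Treg surface, had the largest positive difference of all 19752 genes. It read 11.97, 12.03 and 11.67 on the Treg arrays, against 8.68, 8.88 and 8.54 on the CD4 T arrays, which is 9.13-fold, a difference of 3.19 (SE 0.176, adjusted p = 7.32e-15).

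Itgb8, the integrin chain that with the alpha-V chain activates latent TGF-beta, read 9.52, 9.10 and 8.92 on the Treg arrays, against 7.16, 7.22 and 6.14 on the CD4 T arrays, a difference of 2.34 (SE 0.209, adjusted p = 7.08e-10). CD4 T array 3 was the lowest of the 6 for Itgb8. The alpha-V gene Itgav differed by 1.05 and was not called without that array. Nrp1, a coreceptor for semaphorins that marks thymus-derived Treg cells in mouse, read 10.22, 10.18 and 10.07 on the Treg arrays, against 7.75, 8.12 and 6.90 on the CD4 T arrays. Its difference was 2.57 (SE 0.279, adjusted p = 5.21e-08). The cytokine gene Tgfb1 was not called (0.45), and its arrays overlapped.

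Both enzymes that turn extracellular ATP into adenosine were higher. Entpd1 (CD39) read 8.92, 9.01 and 9.10 on the Treg arrays, against 7.08, 7.12 and 7.36 on the CD4 T arrays, a difference of 1.82 (SE 0.215, adjusted p = 3.04e-07). Nt5e (CD73) read 10.70, 10.62 and 10.80 on the Treg arrays, against 9.07, 8.96 and 8.53 on the CD4 T arrays, and differed by 1.85 (SE 0.241, adjusted p = 1.78e-06). Both belong to a list of 14 measured adenosine and cyclic AMP genes, of which 2 were higher and 1 lower.

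The lower gene of that list was Pde3b, a phosphodiesterase that breaks down cyclic AMP and is known to be repressed by Foxp3 in mouse. It had the largest negative difference of all genes. It read 6.24, 5.70 and 6.18 on the Treg arrays, against 9.95, 9.92 and 8.94 on the CD4 T arrays, which is 11.8-fold higher in CD4 T cells, a difference of -3.56 (SE 0.296, adjusted p = 1.39e-10). CD4 T array 3 was the lowest CD4 T array and still far above every Treg array. The other phosphodiesterase genes of the list were not called, from -0.55 for Pde7a to 0.67 for Pde2a.

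Among secreted and cytotoxic molecules of suppression, Il10 read 5.81, 5.19 and 6.44 on the Treg arrays, against 4.56, 4.52 and 5.02 on the CD4 T arrays, a difference of 1.12 (SE 0.219, adjusted p = 0.00125) at a dim level. Ebi3, the beta chain of IL-35, differed by 1.41, while its partner Il12a did not pass the test (-0.15). Gzmb (granzyme B) read 7.49, 7.20 and 9.37 on the Treg arrays, against 6.18, 6.04 and 6.51 on the CD4 T arrays, so Treg array 3 stood well above its companions, and the difference was 1.77 (SE 0.401, adjusted p = 0.00622). Fgl2, a secreted suppressive protein, differed by 1.22, and the inhibitory receptor Tigit by 1.78. Sema4a, a ligand that binds Nrp1 on Treg cells, was lower, at 8.34, 8.47 and 8.05 on the Treg arrays, against 9.79, 9.81 and 9.20 on the CD4 T arrays, a difference of -1.31 (SE 0.191, adjusted p = 1.36e-05). Prf1 (perforin) was lower on each Treg array but under 2-fold (-0.79).

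Several receptors of the TNF family rose. Of 13 measured receptors 5 were higher and 0 lower (median 0.43), and of 11 ligands 0 were higher and 1 was lower (median 0.23). Tnfrsf9 (4-1BB) read 10.71, 10.77 and 11.05 on the Treg arrays, against 8.76, 8.60 and 8.83 on the CD4 T arrays, a difference of 2.11 (SE 0.256, adjusted p = 5.04e-07). Tnfrsf4 (OX40) read 11.01, 11.02 and 11.57 on the Treg arrays, against 8.94, 8.93 and 9.56 on the CD4 T arrays, and differed by 2.06 (SE 0.211, adjusted p = 1.6e-08). Array 3 was the highest in both groups for Tnfrsf4. Tnfrsf18 (GITR) and Tnfrsf1b (TNF receptor 2) differed by 1.71 and 1.38. Fas, the death receptor, differed by 1.01 and was not called without CD4 T array 3.

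The lower ligand was Cd40lg, with which helper T cells license B cells and dendritic cells. It read 7.70, 7.74 and 8.28 on the Treg arrays, against 9.89, 10.06 and 9.68 on the CD4 T arrays, a difference of -1.97 (SE 0.202, adjusted p = 1.6e-08), which is 3.91-fold higher in CD4 T cells. Tnfsf10 (TRAIL), Lta and Tnf had differences of 0.94, 0.70 and 0.67 and were not called. Of 18 NF-kappaB genes only Rel was called, and only Nfkbia without CD4 T array 3, but for 15 of them each Treg array lay above each CD4 T array, against 10.7% of all genes, with a median of 0.63. The inhibitors Nfkbia, Tnfaip3 and Nfkbiz lay just under the limit at 1.00, 0.94 and 0.91.

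**Figure D2:**
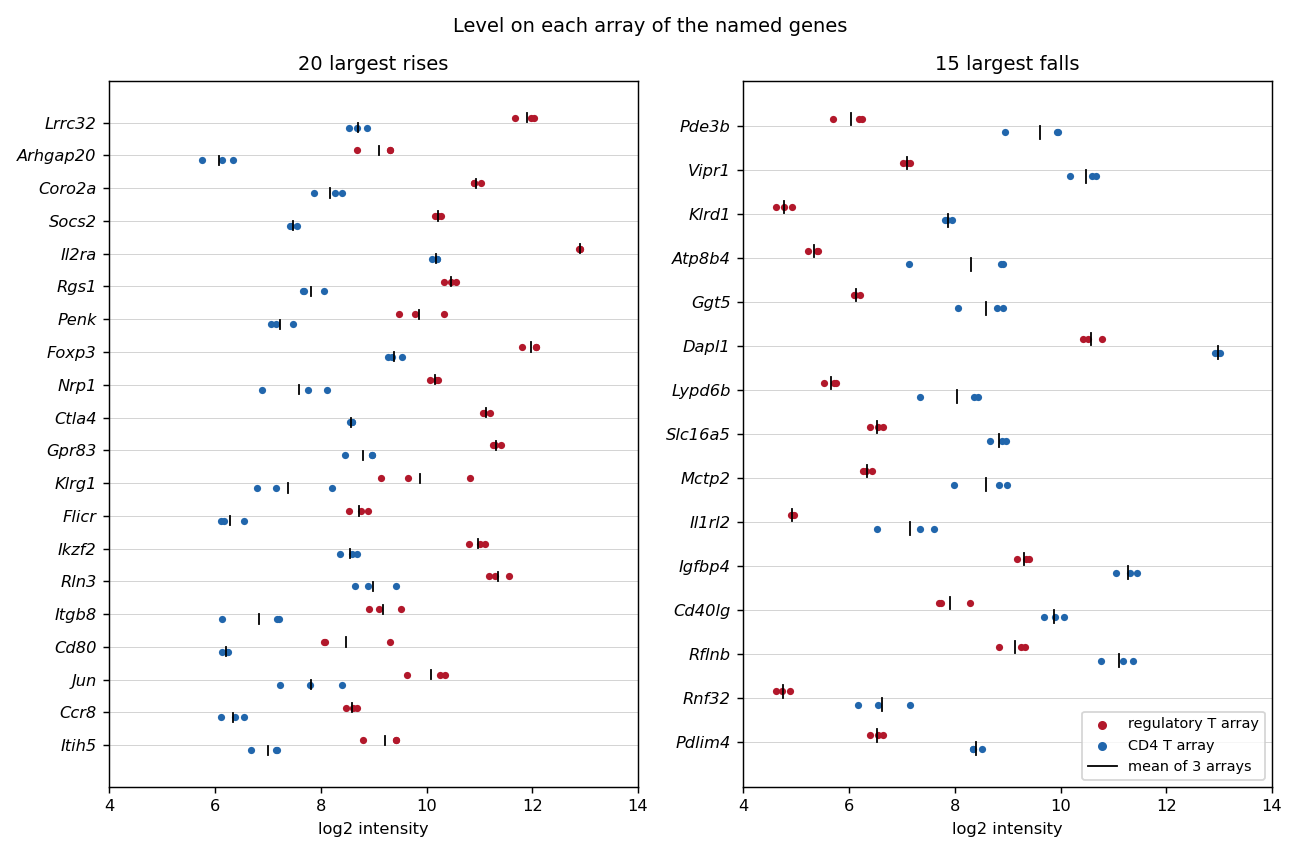
Log2 intensity on each array for the 20 genes with the largest positive and the 15 with the largest negative difference that met the naming rule. Red points are Treg arrays, blue points CD4 T arrays and black ticks the means of 3. The rule admitted only genes whose groups do not overlap.

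Part of the homing receptors changed. Of 29 measured chemokine receptors, integrins and egress receptors, 7 were higher and 1 was lower (median 0.35), and 5 and 1 without CD4 T array 3. Ccr8 read 8.68, 8.49 and 8.60 on the Treg arrays, against 6.11, 6.54 and 6.39 on the CD4 T arrays, a difference of 2.25 (SE 0.183, adjusted p = 1.05e-10). Itgae (CD103), the integrin that binds E-cadherin of epithelia, read 8.46, 8.27 and 9.50 on the Treg arrays, against 6.59, 6.70 and 7.08 on the CD4 T arrays, and differed by 1.95 (SE 0.255, adjusted p = 1.95e-06). Treg array 3 was the highest for Itgae. Ccr4, which guides cells to skin and inflamed tissue, differed by 1.44, and Ccr6, the receptor for CCL20, by 1.60.

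Ccr3 read 6.91, 7.35 and 8.48 on the Treg arrays, against 6.62, 6.34 and 6.40 on the CD4 T arrays, so its difference of 1.13 (adjusted p = 0.0458) came mostly from Treg array 3, and it was not called without CD4 T array 3. Cxcr6 was the lower member, at 5.93, 6.18 and 7.14 on the Treg arrays, against 8.28, 8.25 and 7.99 on the CD4 T arrays, a difference of -1.76 (SE 0.227, adjusted p = 1.62e-06). The receptors of lymph node entry and exit were not called. Ccr7 differed by -0.54, S1pr1 by 0.01 and Klf2, a factor known to drive S1pr1, by -0.14.

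Of 13 measured genes typical of naive T cells, 0 were higher and 2 were lower, with a median of -0.59, and for 8 of the 13 each Treg array lay below each CD4 T array, against 8.84% of all genes. Dapl1, a death-associated protein-like gene of resting T cells, read 10.43, 10.51 and 10.78 on the Treg arrays, against 13.02, 12.98 and 12.92 on the CD4 T arrays, a difference of -2.40 (SE 0.279, adjusted p = 2.16e-07). Igfbp4, which binds insulin-like growth factors, read 9.40, 9.34 and 9.17 on the Treg arrays, against 11.32, 11.45 and 11.05 on the CD4 T arrays, and differed by -1.97 (SE 0.179, adjusted p = 1.11e-09). Actn1 (-0.84) was called only without CD4 T array 3.

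Effector memory genes went both ways, with 3 of 28 higher and 2 lower (median 0.45). Klrg1, an inhibitory receptor of terminally differentiated cells, read 9.66, 9.13 and 10.83 on the Treg arrays, against 7.15, 6.80 and 8.21 on the CD4 T arrays, with array 3 the highest in both groups. The difference was 2.49 (SE 0.399, adjusted p = 7.3e-05). Capg, an actin-capping protein gene, differed by 1.69. The chemokine gene Ccl5, made by memory T cells, was lower at 8.89, 8.86 and 9.25 on the Treg arrays, against 10.16, 9.92 and 10.18 on the CD4 T arrays, a difference of -1.08 (SE 0.19, adjusted p = 0.000268). Of 25 proliferation genes 0 were called, with differences from -0.28 for Ccnd3 to 0.52 for Ccna2 (median 0.27). For 6 of them each Treg array lay above each CD4 T array and for 0 below, against 10.7% and 8.84% of all genes. Heat shock, cholesterol synthesis and GIMAP genes also had no member past both thresholds, although 4 of 11, 5 of 14 and 4 of 8 were separated upward and 0 downward.

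Of 20 measured helper cytokine genes, Il10 was higher and Il21 was lower, the others were not called, and the median was -0.05. Il21, a follicular helper cytokine, read 4.32, 4.21 and 4.53 on the Treg arrays, against 5.44, 5.04 and 6.21 on the CD4 T arrays, a difference of -1.21 (SE 0.185, adjusted p = 3.06e-05), and the call was lost without CD4 T array 3. Ifng, Il4 and Il17a differed by 0.03, -0.24 and -0.13. Of 13 follicular helper genes, Cd200, Izumo1r (folate receptor 4) and P2rx7, which senses extracellular ATP, were higher, at 1.14, 1.42 and 1.35, although Cd200 was not called without CD4 T array 3.

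Among 21 cytokine receptor genes, 3 were higher and 2 lower (median 0.17), against 1 and 3 without CD4 T array 3. Il1rl2, the IL-36 receptor, read 4.96, 4.93 and 4.90 on the Treg arrays, against 7.60, 7.35 and 6.53 on the CD4 T arrays, a difference of -2.23 (SE 0.23, adjusted p = 1.6e-08). Tgfbr3, a TGF-beta coreceptor, was lower (-1.78), while Tgfbr1, the signalling receptor chain, was higher (1.20). The IL-10 receptor chains Il10ra and Il10rb differed by 1.02 and 1.05, and both calls were lost without CD4 T array 3. Of 33 T cell receptor signalling genes only Themis, a thymic selection gene, was called, lower at 9.89, 9.69 and 9.66 on the Treg arrays, against 11.24, 11.23 and 10.10 on the CD4 T arrays (-1.11 (SE 0.269, adjusted p = 0.0122)).

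Immediate early genes, which respond within minutes to receptor signals and also to handling of cells, had 5 of 22 members higher and 0 lower (median 0.64), and 4 without CD4 T array 3. Jun read 10.26, 10.35 and 9.63 on the Treg arrays, against 7.79, 8.40 and 7.24 on the CD4 T arrays, a difference of 2.27 (SE 0.374, adjusted p = 0.000105). Fos read 8.47, 8.39 and 7.97 on the Treg arrays, against 5.93, 6.39 and 6.61 on the CD4 T arrays, and differed by 1.97 (SE 0.309, adjusted p = 4.92e-05). Dusp1, a phosphatase that ends MAP kinase signals, read 11.11, 10.97 and 10.40 on the Treg arrays, against 8.74, 8.78 and 8.64 on the CD4 T arrays, a difference of 2.11 (SE 0.268, adjusted p = 1.24e-06). Fosb and Nr4a1 differed by 1.05 and 1.10, and Nr4a1 was not called without CD4 T array 3. Egr1 and Atf3 were not called, at 0.29 and -0.11.

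**Figure D3:**
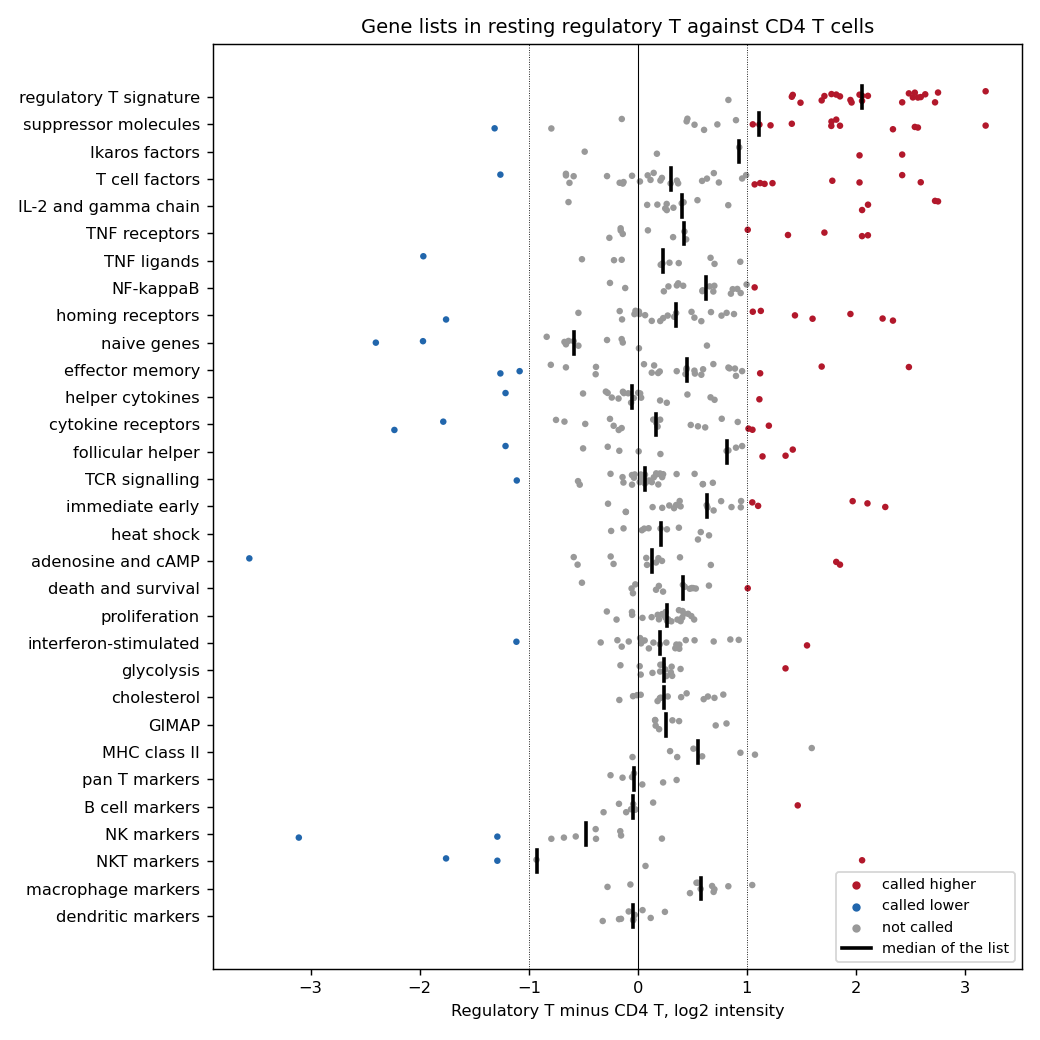
Difference (Treg minus CD4 T, log2 intensity) of each measured member of the gene lists named on the axis, one list per line. The marker lists of plasma cells, CD8 T cells, gamma-delta T cells, neutrophils, red cells, platelets and type 2 innate lymphoid cells are not drawn. Red points were called higher, blue points lower and grey points neither, and the black ticks mark list medians, from 2.06 for the regulatory T signature down to -0.93 for NKT markers.

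Some of the largest rises lie outside these lists. Arhgap20, a GTPase-activating protein gene, read 9.32, 9.30 and 8.68 on the Treg arrays, against 6.33, 6.12 and 5.75 on the CD4 T arrays, a difference of 3.03 (SE 0.177, adjusted p = 2.88e-14). Coro2a, an actin-binding coronin, differed by 2.76 (SE 0.206, adjusted p = 1.52e-11), and Rgs1, which dampens chemokine receptor signals, by 2.65 (SE 0.314, adjusted p = 3.04e-07). Penk, the enkephalin precursor and a member of the signature list, read 9.78, 9.48 and 10.32 on the Treg arrays, against 7.15, 7.05 and 7.47 on the CD4 T arrays, and differed by 2.64 (SE 0.245, adjusted p = 1.74e-09).

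Gpr83, a G protein-coupled receptor of the signature list, differed by 2.52, Rln3, the peptide hormone relaxin-3, by 2.35, and Itih5, of the inter-alpha-trypsin inhibitor family, by 2.21. Cd80, a ligand of CD28 and CTLA-4, read 8.07, 8.06 and 9.31 on the Treg arrays, against 6.25, 6.14 and 6.22 on the CD4 T arrays. Treg array 3 was well above the other Treg arrays for Cd80, and the difference was 2.28 (SE 0.329, adjusted p = 1.21e-05).

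On the lower side, Vipr1, the receptor for vasoactive intestinal peptide, read 7.10, 7.14 and 7.03 on the Treg arrays, against 10.67, 10.60 and 10.18 on the CD4 T arrays, which is 10.5-fold higher in CD4 T cells, a difference of -3.39 (SE 0.18, adjusted p = 5.93e-15). Klrd1 (CD94), a receptor chain of NK and CD8 T cells, read 4.91, 4.61 and 4.77 on the Treg arrays, against 7.82, 7.85 and 7.96 on the CD4 T arrays, and differed by -3.11 (SE 0.24, adjusted p = 3.4e-11). Atp8b4, of the phospholipid flippase family, read 5.40, 5.39 and 5.23 on the Treg arrays, against 8.91, 8.87 and 7.14 on the CD4 T arrays, a difference of -2.97 (SE 0.345, adjusted p = 2.26e-07). CD4 T array 3 was far below the other CD4 T arrays for Atp8b4, and above all Treg arrays.

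The remaining named falls ranged from -2.45 to -1.87. They were Ggt5, a gamma-glutamyltransferase (-2.45), Lypd6b (-2.38), the monocarboxylate transporter family gene Slc16a5 (-2.32), Mctp2 (-2.25), the filamin partner Rflnb (-1.97), Rnf32 (-1.88) and the actin-associated Pdlim4 (-1.87).

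Markers of other cell types were measured beside these results. Of 10 NK cell markers, 0 were higher and 2 were lower, Klrd1 and Klrb1c (-1.29), and of 5 NKT cell markers Il2rb was higher while Klrb1c and Cxcr6 were lower. The median level of the NK markers was 4.84 to 5.01 on the Treg arrays, against 5.84 to 6.37 on the CD4 T arrays, and their summed intensity was 1214 to 1319, against 1728 to 2053. The NK receptor gene Ncr1 averaged 4.73 ± 0.11 in Treg cells and 5.30 ± 0.46 in CD4 T cells, against 13.42 ± 0.16 in NK cells. The part of NK or NKT cells in the lower level of Klrd1, Klrb1c, Cxcr6, Id2 and Ccl5 in Treg cells was not tested.

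Of 11 macrophage markers 0 were called, but for 9 each Treg array lay above each CD4 T array, against 10.7% of all genes. Summed intensity of the 11 was 1374 to 1948 on the Treg arrays, against 1028 to 1182 on the CD4 T arrays. Of 8 MHC class II genes 0 were called and 5 were separated upward (against the same 10.7%), with Cd74 at 1.60 (adjusted p = 0.177). Of 9 B cell markers only Cd79b, a chain of the B cell receptor, was called, at 8.85, 8.85 and 8.92 on the Treg arrays, against 7.24, 7.39 and 7.59 on the CD4 T arrays (1.47 (SE 0.335, adjusted p = 0.00681)). The other 8 differed by -0.31 (Ebf1) to 0.14 (Ms4a1). Summed B cell marker intensity was 995 to 1015 on the Treg arrays, against 692 to 795 on the CD4 T arrays, and without Cd79b it was 510 to 554, against 524 to 603. The part of macrophages or B cells in the differences was not tested. Of the markers of plasma cells, Irf4 was higher, and none was called among markers of platelets, red cells, neutrophils, dendritic cells, type 2 innate lymphoid cells or the T, CD8 T and gamma-delta T lineages.

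Across the 9 baseline cell types, 89 of the 189 higher genes had their highest mean in Treg cells, against 1223 of all 19752 genes. Among the 6 lymphocyte types 138 of the 189 had it there, which was not counted over all genes. Since these genes were chosen for lying above CD4 T cells, the counts only describe them. Foxp3 averaged 11.98 ± 0.15 in Treg cells and 9.39 ± 0.13 in CD4 T cells (SD, n = 3 each). The next highest was NKT cells at 7.66 ± 0.16, and the other types lay between 6.87 ± 0.31 in macrophages and 7.27 ± 0.02 in neutrophils (n = 2), within or near each other's spread. Ctla4 and Lrrc32 followed the same order at the top, with Treg cells highest and CD4 T cells second, at 8.58 ± 0.02 and 8.70 ± 0.17, above all 7 other types.

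Other higher genes were shared with further cell types. Klrg1 averaged 9.87 ± 0.87 in Treg cells and 7.39 ± 0.74 in CD4 T cells, against 10.51 ± 0.57 in NK cells, and Cd80 averaged 8.48 ± 0.72 in Treg cells and 6.20 ± 0.06 in CD4 T cells, against 10.74 ± 0.13 in dendritic cells. Jun in CD4 T cells, at 7.81 ± 0.58, and in CD8 T cells, at 7.98 ± 0.81, lay below the other 7 types, which averaged at least 9.41 ± 0.54. Itgae was highest in CD8 T cells, at 10.20 ± 0.11. The source of CD8 T arrays 1 and 2 is labelled blood against a spleen title.

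For the lower genes, Treg cells had the lowest mean of the 6 lymphocyte types in 29 of 52, and CD4 T cells had the highest in 22. These counts again describe genes chosen on the same arrays, and they were not made over all genes. Pde3b averaged 6.04 ± 0.30 in Treg cells and 9.60 ± 0.57 in CD4 T cells, and between 9.56 ± 0.52 and 10.29 ± 0.10 in the other 4 lymphocyte types. Treg cells thus stood alone among lymphocytes, while Pde3b was also low in dendritic cells (6.74 ± 0.34) and neutrophils (7.21 ± 0.16, n = 2), but not in macrophages (9.11 ± 0.39). Cd40lg averaged 7.91 ± 0.32 in Treg cells and 9.88 ± 0.19 in CD4 T cells, against 9.54 ± 0.46 in NKT cells and at most 6.57 ± 0.13 in the other types. The NKT mean lay below every CD4 T array, but the NKT arrays (9.14 to 10.05) overlapped the CD4 T arrays (9.68 to 10.06). Vipr1 was highest in CD4 T cells at 10.48 ± 0.26, against 9.76 ± 0.11 in CD8 T cells, and its level in Treg cells, 7.09 ± 0.06, lay near that of NK cells, 6.92 ± 0.27. Klrd1 averaged 4.76 ± 0.15 in Treg cells and 7.87 ± 0.07 in CD4 T cells, while the other 4 lymphocyte types lay between 10.43 ± 0.77 in gamma-delta T cells and 12.09 ± 0.15 in NK cells.

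**Figure D4:**
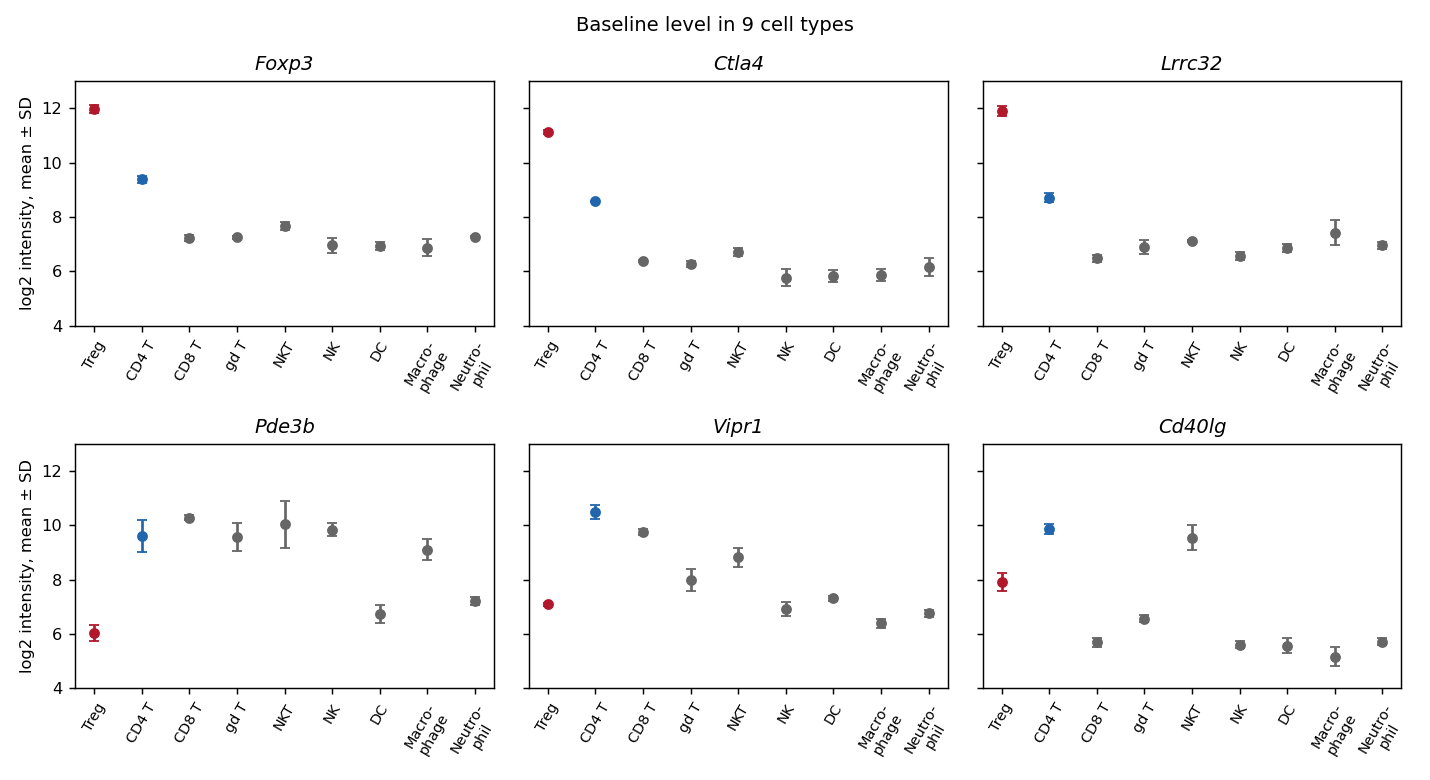
Mean log2 intensity with SD at baseline of 3 genes higher and 3 genes lower in Treg cells, in 9 cell types (n = 3 arrays each, neutrophils 2). Treg cells are red and CD4 T cells blue, and Foxp3, Ctla4 and Lrrc32 are highest in Treg cells and next highest in CD4 T cells, while Pde3b is lowest in Treg cells.

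The place of the CD4 T arrays between CD8 T cells and Treg cells varied among the signature genes. On the linear intensity scale, the CD4 T mean of Foxp3 was 671.9, against 4062 in Treg cells and 148.7 in CD8 T cells, which is 13.4% of the way from CD8 T cells to Treg cells (12% to 15.2% for single CD4 T arrays). The place was 13.7% for Il2ra, 14% for Ctla4, 12.1% for Penk and 8.82% for Lrrc32. Over the 25 signature genes the median was 13.4%, and 14 genes lay between 10 and 20%. The other 11 reached from -26.6% for Il2rb, which was brighter in CD8 T than in CD4 T cells, to 149% for Itgae, which was brightest in CD8 T cells. Whether Treg cells among the CD4+ cells set these levels was not tested.

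The genes whose pattern over the 9 cell types was most like that of Foxp3 were Ctla4 (Pearson r = 0.998), Nrn1 (0.995), Penk (0.991), Flicr (0.987), Ccr8 (0.983), Dusp4 (0.977), Itgb8 (0.975), Lrrc32 (0.974), Ikzf4 (0.969) and Neb (0.964). These r values are descriptions over 9 group means, which share the array and its scale. A pattern like that of Foxp3 is by construction higher in Treg than in CD4 T cells. Nrn1 encodes the small surface protein neuritin and read 7.78, 7.84 and 8.49 on the Treg arrays, against 6.50, 6.19 and 6.36 on the CD4 T arrays, and Dusp4, a MAP kinase phosphatase, differed by 1.22.

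Called genes were also neighbours on chromosomes in 10 of 19655 adjacent pairs of measured genes with the same direction, and in 1 pair with opposite directions. How many such pairs the number of called genes would give by itself was not worked out, so the counts are descriptions. Flicr and Foxp3 on chromosome X were such a pair, Gpr83 and Izumo1r on chromosome 9 another, and Tnfrsf4 and Tnfrsf18 on chromosome 4 were separated only by a predicted gene that was itself called. Swap70 (1.49) lay beside Wee1 (1.00), a kinase that restrains entry into mitosis, on chromosome 7. Gbp3 (1.55) and Gbp2b (1.02) on chromosome 3 are related guanylate-binding protein genes whose probes may not tell them apart. Wee1 and Gbp2b were singled out after their values were seen.

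The same contrast was measured on 4 other arrays, 2 of Treg cells and 2 of CD4 T cells whose mice had received 10000 U of interferon alpha under the skin 2 h earlier. Here 247 genes were higher (1.25%) and 42 lower (0.213%), together 1.46% of those tested. Of the 189 genes higher at baseline, 147 were called higher again (77.8%), which is 59.5% of the 247, and of the 52 lower genes 30 were called lower again (57.7%), which is 71.4% of the 42. All 189 higher genes and 51 of the 52 lower genes kept their sign, while 43.1% of all genes had a positive and 56.9% a negative difference. Without CD4 T baseline array 3, 125 of 158 and 29 of 73 were called again. With the spread of a lone array taken from the other groups, the interferon count of higher genes was 117 without CD4 T interferon array 1 and 132 without Treg interferon array 2. Preparation wording and cell type cannot be told apart on these 4 arrays.

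Foxp3 read 11.997 and 11.94 on the Treg interferon arrays, against 9.26 and 9.46 on the CD4 T interferon arrays, a difference of 2.61. Lrrc32 read 11.29 and 11.29 on the Treg interferon arrays, against 7.81 and 8.26 on the CD4 T interferon arrays, a difference of 3.26. Pde3b read 5.88 and 5.75 on the Treg interferon arrays, against 8.91 and 8.84 on the CD4 T interferon arrays, a difference of -3.06. The groups stayed apart for these 3 genes. Of the 25 signature genes, the sort marker gene Il2ra among them, 24 were called again, Icos excepted, with a median of 1.98.

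Limma found 0 genes whose difference between Treg and CD4 T cells changed with interferon. Its unadjusted p was below 0.05 for 377 of the 19752 genes. That is a smaller share than the 0.05 that would arise with no change in any gene, but it does not show that the differences were unchanged. The interferon side has 2 against 2 arrays, on which preparation wording and cell type cannot be told apart. Among the named genes Vipr1 differed by -2.15 after interferon, against -3.39 at baseline, and Dusp1 by 3.19, against 2.11, neither change being called.

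**Figure D5:**
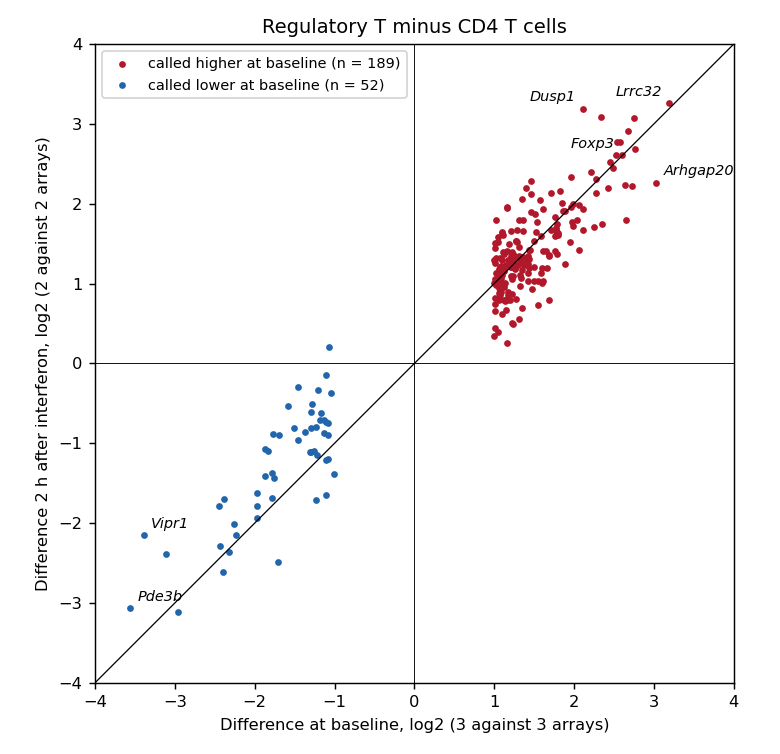
Difference between Treg and CD4 T cells after interferon (vertical axis, 2 against 2 arrays) against the same difference at baseline (horizontal axis, 3 against 3 arrays), both in log2 intensity, for the 241 genes called at baseline. The diagonal marks equal differences, and all but 1 gene lie in the 2 quadrants of equal sign.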

How the data were processed

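The authors deposited intensities on a linear scale, which per the submitters' processing notes were summarised by RMA with Affymetrix Power Tools (versions not given in the sources used here). Of 24922 probe sets, 21425 carry one gene symbol in the platform annotation, 1399 several and 2098 none. Here the deposited intensities were put on the log2 scale without further scaling, and each symbol was represented by its brightest probe set, which left 19752 genes. Limma 3.58.1 (R 4.3.3) was fitted to all 43 arrays in 18 groups with lmFit and eBayes, with 25 residual degrees of freedom, and p-values were adjusted by Benjamini-Hochberg over all genes. A call needed an adjusted p below 0.05 and a log2 difference of at least 1. Named genes were the 20 largest rises and 15 largest falls among called genes whose arrays did not overlap and whose adjusted p stayed below 0.05 with the preparation wording as a block, leaving out predicted genes, small RNAs and receptor gene segments, together with members of 38 gene lists. The members and lists were chosen with earlier results of these data known. On simulated arrays of 19752 genes the fit recovered 100 of 100 genes at each changed size (1.5 and 2.5), with 2 false calls among the unchanged genes. The simulation drew independent noise for each array with 1 spread per gene, so no simulated array stood apart as CD4 T array 3 does. Both sizes lie above the limit of 1, so it does not tell how differences near that limit are called. Alternatives in scaling, filter, probe set rule, blocks and left-out arrays are given in the closing section. Promoter windows came from RefSeq (GRCm38.p6).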

Additional observations from a re-analysis of the deposited data

Results flagged for a closer look

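Gramd3 was the single gene called at baseline whose arrays lay wholly on one side in untreated mice and wholly on the other after interferon, and it was named after its values were seen. It read 9.70, 9.58 and 10.01 on the baseline Treg arrays, against 11.04, 10.91 and 10.54 on the baseline CD4 T arrays, a difference of -1.06 (adjusted p = 0.000672). After interferon it read 11.13 and 11.19 on the Treg arrays, against 10.94 and 10.97 on the CD4 T arrays, a difference of 0.21 (adjusted p = 0.702). The change in the difference was 1.27 (SE 0.315) with an unadjusted p of 0.000308 from limma, and its adjusted p over all genes was 1.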

How the results depend on the processing

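The baseline counts of 189 higher and 52 lower genes stayed within 1.5 times under every planned setting that used all 6 arrays. With the 6 arrays fitted alone they were 187 and 51, with the 26 baseline arrays 184 and 52, after quantile scaling 152 and 62, without dim genes 181 and 47, with array weights 167 and 72, and with the mean of probe sets 189 and 53. Leaving out 1 baseline array gave 158 to 209 higher and 47 to 73 lower genes, the extremes of 158 and 73 being those without CD4 T array 3. Arrays 1 and 2 alone gave 149 and 68, and array 3 of each group alone 167 and 46, of which 108 and 22 were among the 189 and 52. That last setting sets 1 array against 1, and its spread is assumed to be that of the other groups of the fit.

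After interferon, the 4 arrays fitted alone called 305 higher and 87 lower genes, against 247 and 42, and 41 of the 42 were among the 87. Leaving out 1 interferon array, so that the lone array left is assumed to vary like the other groups, gave 117 to 244 higher and 29 to 51 lower genes, with 117 without CD4 T interferon array 1 and 132 without Treg interferon array 2. The cause was not tested. The interaction count was 0 in each setting run.

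As for a pairing by replicate number, same-numbered arrays of the groups had deviations that correlated at 0.218, 0.085 and 0.159, which did not all pass the 0.1 needed to treat the numbers as pairs. Array 3 of both groups also shares its preparation wording. The replicate block gave 191 higher and 52 lower genes over all arrays and 190 and 53 over the 6.

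Of 629 comparisons of 35 named genes under 18 settings, 626 kept direction and call. The exceptions, with array 3 of each group alone and the same borrowed spread, were Jun (2.39, adjusted p = 0.06), Atp8b4 (-1.91, adjusted p = 0.0621) and Mctp2 (-1.66, adjusted p = 0.0624). Rnf32 was removed by the filter on dim genes. The counts without CD4 T array 3 for each gene list were added after seeing the data, and 71 of 76 stayed within 1.5 times.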

Other observations

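The apoptosis, glycolysis and interferon-stimulated lists each had 1 member called higher between untreated Treg and CD4 T cells. In lists this short, 1 gene is a larger share than the 0.957% of all genes called higher. Over all genes 0.263% were called lower. Of 15 genes of the BCL-2 family and death pathway, Fas was called higher, and for 8 each Treg array lay above each CD4 T array, against 10.7% of all genes. Without CD4 T array 3 Fas was not called. Of 14 glycolysis genes, Slc2a3, a glucose transporter, was higher, and 7 were separated upward. Of 23 interferon-stimulated genes, Gbp3 was higher and Oas2, an antiviral nucleotide synthetase, was lower, 7 were separated upward and the list median was 0.20. Without CD4 T array 3 Isg20 was called higher as well.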
